A study of Mus musculus with 6 samples.

Results

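The genes described here build, sulfate and trim heparan sulfate chains and supply the sugars and sulfate for them. The list holds 32 genes, chosen by name and by step of the pathway and matched to array probes through the platform's gene symbols, current or former. Of the 32, 31 had at least 1 probe on the array, with 67 probes in all, out of 19053 genes with a probe. For 25 of them a probe was detected on at least 2 arrays, as for 11147 genes in all, and these 25 were tested. Ndst1 was not analysed here.

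The samples were conjunctival epithelium, the thin sheet of cells over the inside of the lids and the front of the sclera, taken from mouse embryos at stage E14.5. The arrays labelled KO came from Sox9 fx/fx, Le-Cre-positive embryos, in which both Sox9 alleles are floxed and the Le-Cre transgene is present, which deletes floxed sequence in the ocular surface ectoderm and the tissues derived from it. The other arrays were labelled WT, wild type, with no word on floxed alleles or Le-Cre in those embryos, and all embryos had the same mixed FVB and 129 background. Each genotype had 1 array for each of 3 regions, nasal, temporal and dorsal, so there were 3 KO and 3 WT arrays. The epithelium was cut from 10 micrometre sections by laser microdissection, and 15 ng of RNA was amplified before hybridisation to Illumina bead arrays. The design text names 3 embryos per genotype with the cDNA of a region pooled, while the extraction protocol speaks of a single embryo. With 1 array per genotype and region, the p-values below rest on how the genotype difference varied between regions. They do not measure the spread from embryo to embryo on its own, and understate it if the arrays of a genotype share embryos.

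Heparan sulfate is a chain of alternating glucuronic acid and N-acetylglucosamine that is attached to core proteins at the cell surface and in basement membranes. It starts on a linkage of xylose, galactose, galactose and glucuronic acid, is extended by the exostosin enzymes, and is then sulfated in the Golgi at set positions. The sulfation pattern sets which growth factors the chain binds, and in the mouse lacrimal gland the chains on epithelial cells help FGF10 bind its receptor while the gland bud grows from the conjunctiva.

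Detected probes made up 39.8% to 45.6% of the 45281 probes per array, with median signals of 77.3 to 83.7 intensity units and a median of 43 beads per probe. The array labels place the KO samples at 3 neighbouring positions of 1 chip and the WT samples at the next 3, so position and genotype cannot be told apart. Sox9 was not lower on the KO arrays as a group. Its brighter probe (ILMN_2778151) read 10.21, 10.06 and 9.85 on the KO nasal, temporal and dorsal arrays, against 8.29, 10.01 and 10.35 on the WT arrays (log2 intensity). The position of that probe relative to the floxed part of the gene was not known here, so it checks nothing about the deletion, and every direction below is between arrays as labelled. Of 12 epithelial markers, 11 were tested and all 11 were detected on every array, with summed intensities of 9165 to 10110 on KO and 8477 to 9728 on WT arrays. Cartilage markers (7 of 9 tested) summed to 54 to 144 units on KO arrays and to 332, 1965 and 130 on the WT nasal, temporal and dorsal arrays. Nerve glia markers (5 of 8 tested) summed to 81 to 347 on KO arrays and to 178, 766 and 132 on the WT nasal, temporal and dorsal arrays. Single markers of these lists did not all go 1 way. In temporal 4 cartilage markers were lower and 3 higher on KO, and 4 nerve glia markers were lower and 1 higher. Macrophage markers (6 of 12 tested) summed to 103 to 239 on KO and 25 to 112 on WT arrays, mesenchymal markers (12 of 14 tested) to 884 to 1182 on KO and 738 to 1364 on WT arrays, and 0 of 7 endothelial markers could be tested. In tissue of mixed cells such as this, fewer cells of a type and less RNA per cell cannot be told apart.

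Levels below are log2 normalized intensities of a gene's brightest kept probe, a probe being kept if it was detected on at least 2 arrays (detection p under 0.05). Differences are KO minus WT on that log2 scale, and levels of different genes were not compared because each probe has its own brightness. With 1 array per genotype in a region, a regional difference has no test. The bead standard error (SE) printed beside it covers bead-to-bead error on the 2 arrays only. Over the 3 regions, limma (1 linear model over all 6 arrays, with genotype and region as its terms) called 0 of the 25 members at an adjusted p under 0.05, and 0% of all 11147 genes. At an unadjusted p under 0.05 it called 1 of 25 members, Sulf2, and 5.9% of all genes. The smallest adjusted p of a member was 0.814, and the 95% interval of a member's difference reached a median of 0.80 to each side.

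**Figure D1:**
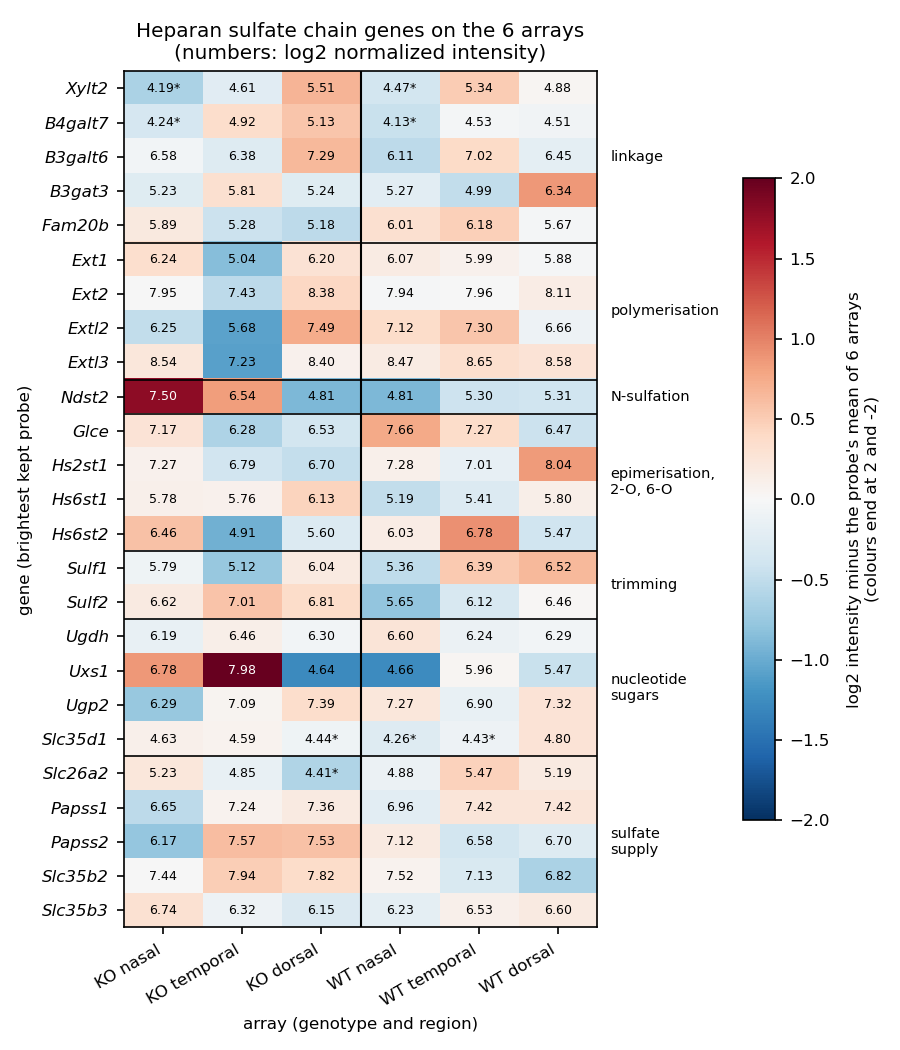
Log2 normalized intensity of the 25 tested heparan sulfate chain genes (rows, grouped by step) on the 3 KO and 3 WT arrays (columns), with the value in each cell, an asterisk where the probe was not detected, and colour for the distance from the probe's own mean over 6 arrays. Ext1, Ext2, Extl2 and Extl3 are each lowest on the KO temporal array, while Ndst2 is highest on KO nasal (7.50) and Uxs1 on KO temporal (7.98).

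In the temporal region 6 of 25 members differed by at least 2-fold between KO and WT, against 16.9% of all genes detected in that region. Lower on KO temporal by at least 2-fold were 4 members (8.31% of all genes), Extl2, Extl3, Hs6st2 and Sulf1, and higher were 2 (8.58% of all genes), Ndst2 and Uxs1. In nasal epithelium 2 of 23 detected members passed 2-fold (21% of all genes), Ndst2 and Uxs1, both higher on KO (10.5% of all genes). In dorsal epithelium 2 of 25 did (6.49% of all genes), B3gat3 and Hs2st1, both lower on KO, where 3.35% of all genes were lower and 3.15% higher by that much. With median scaling B3gat3 (-0.838) and Hs2st1 (-0.998) stayed lower on KO in dorsal but fell short of 2-fold. Under that scaling 0 members were lower and 4 higher by 2-fold (7.34% of all genes in either direction), and the dorsal median of all genes was 0.18. Lower on KO by any amount were 10 of 23 detected members in nasal (51.9% of all genes), 14 of 25 in temporal (51.9%) and 11 of 25 in dorsal (50.1%). The median difference over the 25 members was 0.06 in nasal, -0.20 in temporal and 0.06 in dorsal, beside -0.02, -0.02 and 0.00 over all genes. With second probes, where kept, the temporal median was 0.16, beside -0.03 over all genes.

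**Figure D2:**
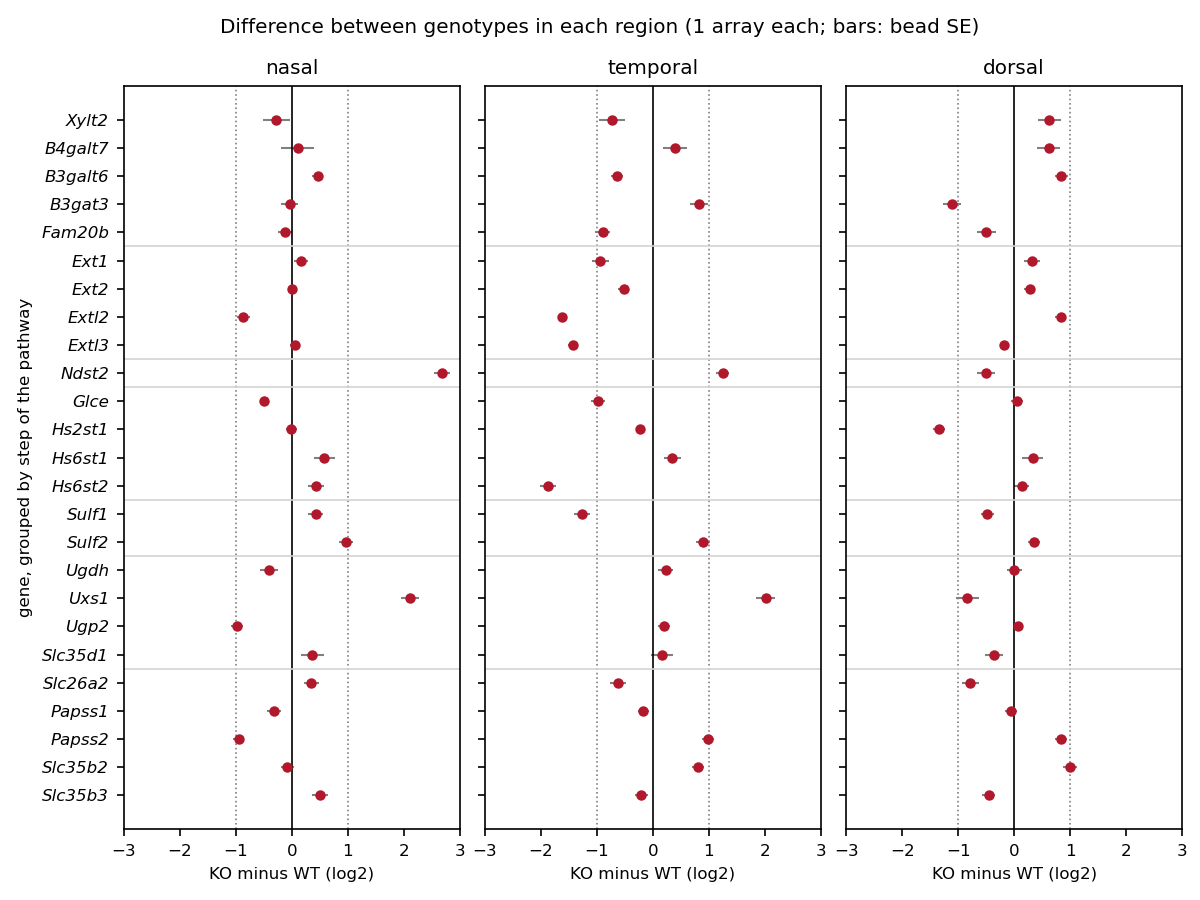
KO minus WT difference (log2, x axis) of the 25 tested members (rows, grouped by step of the pathway) in nasal, temporal and dorsal epithelium, 1 array per genotype, with bead SE as bars and dotted lines at 2-fold. The polymerisation genes lie left of 0 in the temporal panel (-0.52 to -1.62), and Ndst2 and Uxs1 lie right of 1 in the nasal and temporal panels and left of 0 in the dorsal panel.

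The polymerisation genes shared a direction in temporal. All 4 tested genes of this step were lower on the KO temporal array than on the WT temporal array, with a median difference of -1.19, and each had its lowest value of the 6 arrays there. In nasal the same genes had a median difference of 0.04 and in dorsal of 0.29. Among all 25 members, 7 were lowest on KO temporal (28%), beside 20.6% of all genes. The other 3 were Glce, Hs6st2 and Sulf1.

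Promoter windows of 250 bases before the start are shown for 2 of the tested polymerisation genes, Extl2 (its first listed start) and Ext2, from RefSeq on assembly GRCm38.p6, read 5′ to 3′ along the gene's own strand. Capitals mark the letters ACAAT or ATTGT, the core that SOX proteins recognise and its reverse complement, and GGGCGG or CCGCCC, the GC box on either strand.
Extl2 chr3:116007199-116007448 (forward strand): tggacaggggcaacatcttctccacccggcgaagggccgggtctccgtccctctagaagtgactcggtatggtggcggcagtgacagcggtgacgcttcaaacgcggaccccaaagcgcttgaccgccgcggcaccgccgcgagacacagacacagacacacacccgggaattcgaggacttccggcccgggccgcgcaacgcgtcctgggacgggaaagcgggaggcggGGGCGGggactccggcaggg
Ext2 chr2:93822569-93822818 (reverse strand): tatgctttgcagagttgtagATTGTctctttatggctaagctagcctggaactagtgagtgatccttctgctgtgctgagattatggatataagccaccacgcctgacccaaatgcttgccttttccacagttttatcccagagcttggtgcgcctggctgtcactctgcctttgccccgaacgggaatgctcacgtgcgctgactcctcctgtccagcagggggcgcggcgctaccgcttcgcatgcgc
This Extl2 window held 1 GC box and no SOX core, while the window of a second Extl2 start (chr3:116008047-116008296) held 1 SOX core, 145 bases before that start, and no GC box. The Ext2 window held 1 SOX core, 230 bases before the start, and no GC box. Windows were available for 25 members, which are not the 25 tested ones, and numbered 33, since some genes have several starts. Ext1, Extl3, Sulf1 and Slc26a2 were tested but had no window. Extl1, Ndst3, Hs6st3 and Hpse had a window but were not tested. A SOX core on either strand occurred in 7 of the 33 (21.2%) and in 27.7% of all 32851 windows of this length. A GC box occurred in 17 of the 33 (51.5%) and in 32.7% of all windows. A match describes letters in a window and is not a site shown to be bound.

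Extl3 starts the heparan sulfate chain by adding the first N-acetylglucosamine to the linkage. Its brightest probe (ILMN_1239857) read 8.54, 7.23 and 8.40 on the KO nasal, temporal and dorsal arrays, against 8.47, 8.65 and 8.58 on the WT nasal, temporal and dorsal arrays. On this probe the KO temporal array stood alone at the low end, and the other 5 arrays spanned only 0.25. The temporal difference was -1.43 (bead SE 0.08), 2.69-fold lower on KO, and the nasal and dorsal differences were 0.06 and -0.18. Extl3 had 3 further kept probes, and these gave -0.98, -0.98 and -1.45 in temporal, so all 4 probes were lower on KO there. On these further probes KO temporal was again the lowest array, and WT temporal was the highest. KO temporal did not always stand alone, since ILMN_2630211 read 5.725 on KO temporal, 5.887 on KO nasal and 6.71 on WT temporal. Over the 3 regions the limma difference was -0.51 (SE 0.36, adjusted p = 0.849). Without the KO temporal array it was -0.058, and without the WT temporal array -0.057. With region in the model, leaving out either array of a region takes that region out of the genotype difference. Each value below without 1 array is thus a difference over the other regions and does not single out that array.

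Extl2 adds N-acetylglucosamine to a phosphorylated linkage and so ends chain growth. It read 6.25, 5.68 and 7.49 on the KO nasal, temporal and dorsal arrays, against 7.12, 7.30 and 6.66 on the WT nasal, temporal and dorsal arrays. The KO arrays held both the lowest values and the highest one, so the genotypes overlapped. The differences were -0.87 in nasal, -1.62 in temporal (3.08-fold lower on KO, bead SE 0.08) and 0.83 in dorsal. A limma fit of whether the genotype difference in dorsal departed from that in the other regions gave 2.08 for Extl2, with an unadjusted p of 0.0309 and an adjusted p of 0.9999. In that fit 0 of 25 members passed after adjustment (0% of all genes), and 3 did before it (2.08% of all genes), Extl2, Ndst2 and Uxs1.

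Ext1 and Ext2 encode the paired enzymes that lengthen the chain by adding glucuronic acid and N-acetylglucosamine in turn. Ext1 is described in full although its values had been seen when it was chosen. It read 6.24, 5.04 and 6.20 on the KO nasal, temporal and dorsal arrays, against 6.07, 5.99 and 5.88 on the WT arrays in the same order. The KO temporal array was again the low one, outside the 5.88 to 6.24 of the other 5, and the temporal difference was -0.94 (bead SE 0.15). Ext2 read 7.95, 7.43 and 8.38 on the KO nasal, temporal and dorsal arrays, against 7.94, 7.96 and 8.11 on the WT arrays. KO temporal was the lowest here too, by a smaller step (difference -0.52, bead SE 0.10), below the 7.94 to 8.38 of the other 5 arrays. The second Ext2 probe, which was dimmer and detected on 4 arrays, gave 0.19 in temporal and so had the opposite sign. Over the 3 regions the limma differences were -0.15 (SE 0.33, adjusted p = 0.955) for Ext1 and -0.08 (SE 0.27, adjusted p = 0.978) for Ext2, and without the KO temporal array they were 0.24 and 0.14.

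All 4 genes were lowest on the KO temporal array, which also held the lowest cartilage and nerve glia marker sums of the 6 arrays. The cartilage markers summed to 54 units and the nerve glia markers to 81 on KO temporal, against 1965 and 766 on WT temporal. The cartilage sums of KO nasal and KO dorsal were also low, 84 and 144, and their nerve glia sums were 347 and 130. The brightest cartilage markers on WT temporal were Col2a1 (10.04) and Col9a1 (9.51), while 3 of the 7 tested were higher on KO temporal. Which cells made this RNA, and whether cells of these types had a part in the result, was not tested. The direction in temporal was the same for all 4 genes without background correction, with an offset of 50, with median scaling and in the authors' processed table, and Extl3 lay between -1.14 and -1.52 in those settings. Extl1, the fifth gene of this step, was detected on 0 arrays.

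**Figure D3:**
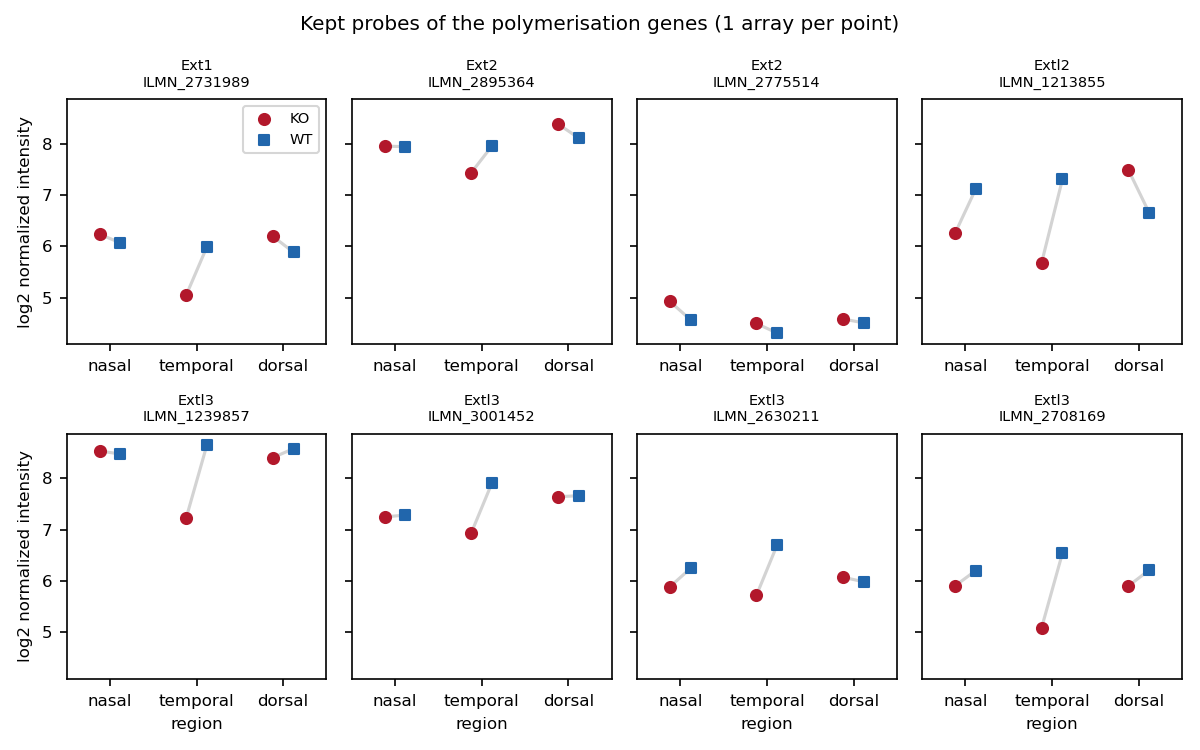
Log2 normalized intensity (y axis) of every kept probe of Ext1, Ext2, Extl2 and Extl3 by region (x axis), with KO as circles left of WT as squares and 1 array per point. The KO point lies below the WT point in temporal for 7 of the 8 probes, and the exception is the dim second probe of Ext2.

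N-deacetylation and N-sulfation open the chain to all later modification, and Ndst2 was the only tested member of this step. Uxs1, which makes UDP-xylose, the donor of the first linkage sugar, had the same sign of difference as Ndst2 in each region. Ndst2 was highest on KO nasal, however, and Uxs1 on KO temporal. Their promoter windows are shown because these 2 genes had the largest differences of the list.
Ndst2 chr14:20734563-20734812 (reverse strand): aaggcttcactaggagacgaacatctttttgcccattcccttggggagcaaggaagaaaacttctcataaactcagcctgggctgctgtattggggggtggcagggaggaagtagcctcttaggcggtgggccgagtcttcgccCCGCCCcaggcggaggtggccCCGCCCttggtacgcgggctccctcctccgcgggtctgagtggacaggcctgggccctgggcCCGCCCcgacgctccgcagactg
Uxs1 chr1:43827840-43828089 (reverse strand): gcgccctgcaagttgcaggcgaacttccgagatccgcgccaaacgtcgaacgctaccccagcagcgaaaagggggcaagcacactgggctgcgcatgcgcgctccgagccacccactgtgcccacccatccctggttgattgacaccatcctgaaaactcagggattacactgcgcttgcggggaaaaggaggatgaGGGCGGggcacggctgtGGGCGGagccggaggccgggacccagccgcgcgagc
The Ndst2 window held 3 GC boxes and the Uxs1 window 2, and neither held a SOX core.

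Ndst2 (ILMN_2751587, its only kept probe) read 7.50, 6.54 and 4.81 on the KO nasal, temporal and dorsal arrays, against 4.81, 5.30 and 5.31 on the WT nasal, temporal and dorsal arrays. KO nasal and KO temporal were high, and KO dorsal was as low as the lowest WT array, so the genotypes overlapped. In nasal the difference was 2.68 (6.43-fold higher on KO, bead SE 0.15), in temporal 1.25 (2.37-fold, bead SE 0.11) and in dorsal -0.50 (bead SE 0.16). Over the 3 regions limma gave 1.14 (SE 0.60, adjusted p = 0.814), and it was 0.36 without the KO nasal and 1.97 without the KO dorsal array. The genotype difference in dorsal departed from the other regions by -2.47 (limma unadjusted p = 0.0381, adjusted p = 0.9999). The same fit with nasal set against the other regions gave 2.31 (unadjusted p = 0.0266, adjusted p = 0.438), where 0 of 25 members passed after adjustment (0% of all genes) and 2 before it (9.63% of all genes), Ndst2 and Papss2.

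Uxs1 (ILMN_2468778, also its only kept probe) read 6.78, 7.98 and 4.64 on the KO nasal, temporal and dorsal arrays, against 4.66, 5.96 and 5.47 on the WT nasal, temporal and dorsal arrays. As with Ndst2, KO nasal and KO temporal were the highest of the 6 arrays and KO dorsal was at the low end. The differences were 2.12 in nasal (4.34-fold higher on KO, bead SE 0.16), 2.02 in temporal (4.05-fold, bead SE 0.17) and -0.83 in dorsal (bead SE 0.20). Over the 3 regions the limma difference was 1.10 (SE 0.62, adjusted p = 0.814), and it was 0.59 without the KO nasal, 0.64 without the KO temporal and 2.07 without the KO dorsal array. The departure of dorsal from the other regions was -2.90, with an unadjusted limma p of 0.00616 and an adjusted p of 0.9999. For both genes no second probe was available to check the reading.

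In temporal all 4 tested nucleotide sugar genes were higher on KO, with a median of 0.21, while 51.9% of all genes were lower there. Apart from Uxs1 these differences were small, 0.16 to 0.23, with bead SEs of 0.10 to 0.20. Ugdh, which makes UDP-glucuronic acid, spanned 6.19 to 6.46 on KO and 6.24 to 6.60 on WT arrays. Its differences were -0.41, 0.23 and 0.01 in nasal, temporal and dorsal. Ugp2, which makes UDP-glucose, differed by -0.98 in nasal (bead SE 0.11), just short of 2-fold, and by 0.20 and 0.07 in temporal and dorsal. Slc35d1, a carrier of UDP-sugars into the endoplasmic reticulum, was dim and was detected on 3 arrays, which did not include WT temporal. Its values were 4.44 to 4.63 on KO and 4.26 to 4.80 on WT arrays.

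The linkage genes did not share a direction. In temporal 3 of 5 tested genes were lower on KO, with a median difference of -0.64, and in dorsal 3 of 5 were higher, with a median of 0.62. Fam20b, a kinase that phosphorylates the linkage xylose, read 5.89, 5.28 and 5.18 on the KO nasal, temporal and dorsal arrays, against 6.01, 6.18 and 5.67 on the WT arrays. It was lower on KO in all 3 regions, although KO nasal lay within the WT values, and limma gave -0.50 (SE 0.27, adjusted p = 0.814), or -0.30 without the KO temporal array. B4galt7, which adds the first galactose, read 4.24, 4.92 and 5.13 on the KO nasal, temporal and dorsal arrays, against 4.13, 4.53 and 4.51 on the WT arrays. It was higher on KO in all 3 regions (limma difference 0.37, SE 0.25, adjusted p = 0.841, and 0.24 without the KO dorsal array), but the probe was not detected on either nasal array.

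B3gat3, which adds the closing glucuronic acid of the linkage, had 4 kept probes that differed in sign. The brightest read 5.23, 5.81 and 5.24 on the KO nasal, temporal and dorsal arrays, against 5.27, 4.99 and 6.34 on the WT nasal, temporal and dorsal arrays. WT dorsal was the highest of the 6 and WT temporal the lowest. Its dorsal difference of -1.11 (2.15-fold lower on KO, bead SE 0.15) stood beside 0.14, -1.12 and -0.55 for the other 3 probes. Xylt2, the xylosyltransferase that starts the linkage, spanned 4.19 to 5.51 on KO and 4.47 to 5.34 on WT arrays. B3galt6, which adds the second galactose, spanned 6.38 to 7.29 on KO and 6.11 to 7.02 on WT arrays. Xylt1 was detected on 1 array.

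Among the genes of epimerisation and of 2-O- and 6-O-sulfation, Hs6st2 and Hs2st1 passed 2-fold in 1 region each. Hs6st2 places sulfate at the 6-O position of glucosamine. Its brightest probe read 6.46, 4.91 and 5.60 on the KO nasal, temporal and dorsal arrays, against 6.03, 6.78 and 5.47 on the WT nasal, temporal and dorsal arrays. KO temporal was the lowest and WT temporal the highest of the 6, a difference of -1.87 (3.66-fold lower on KO, bead SE 0.14). The 3 further probes gave -0.73, -0.30 and -0.40 in temporal, the last 2 of them detected on 2 arrays each. Set against the other regions, temporal departed by -2.16 (limma unadjusted p = 0.0131, adjusted p = 0.844), and Hs6st2 was the 1 of 25 members under 0.05 in that fit before adjustment, beside 5.64% of all genes. After adjustment 0 of 25 members passed, as did 0% of all genes.

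Hs2st1 places sulfate at the 2-O position of the uronic acid. Its brightest probe read 7.27, 6.79 and 6.70 on the KO nasal, temporal and dorsal arrays, against 7.28, 7.01 and 8.04 on the WT nasal, temporal and dorsal arrays. WT dorsal stood above the other 5 arrays, and the dorsal difference was -1.34 (2.53-fold lower on KO, bead SE 0.10). The second probe read 5.90, 5.21 and 5.31 on the KO arrays, against 4.79, 5.18 and 4.85 on the WT arrays, a dorsal difference of 0.46. The 2 probes of Hs2st1 had opposite signs in all 3 regions. The first gave -0.01, -0.22 and -1.34 in nasal, temporal and dorsal, and the second 1.11, 0.03 and 0.46.

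Hs6st1, which also acts at the 6-O position, read 5.78, 5.76 and 6.13 on the KO nasal, temporal and dorsal arrays, against 5.19, 5.41 and 5.80 on the WT arrays. It was higher on KO in each region by 0.34 to 0.59, while WT dorsal lay above KO nasal and KO temporal, and limma gave 0.42 (SE 0.24, adjusted p = 0.814). Its second probe gave -0.19, 0.28 and 0.27 in nasal, temporal and dorsal. Glce, the epimerase that turns glucuronic into iduronic acid, read 7.17, 6.28 and 6.53 on the KO nasal, temporal and dorsal arrays, against 7.66, 7.27 and 6.47 on the WT arrays. Its temporal difference of -0.99 fell just short of 2-fold, and the 2 further probes gave -0.81 and -0.94 there. In nasal these 3 probes gave -0.49, 1.86 and 0.78, so they differed in sign. Hs6st3 was detected on 1 array, Ndst3 on 0 and Ndst4 on 1.

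Trimming outside the cell is done by Sulf1 and Sulf2, endosulfatases that remove 6-O-sulfate from finished chains, and by heparanase (Hpse), which was detected on 1 array. Sulf2 was the only member whose KO arrays all lay above all WT arrays, 1 of 25 (4%), where 11.5% of all genes had groups that did not overlap. It read 6.62, 7.01 and 6.81 on the KO nasal, temporal and dorsal arrays, against 5.65, 6.12 and 6.46 on the WT nasal, temporal and dorsal arrays. The lowest KO array, nasal, stood just above the highest WT array, dorsal. KO averaged 6.81 ± 0.20 and WT 6.07 ± 0.41 (SD over regions, n = 3 arrays each). The limma difference was 0.74 (SE 0.26, 95% interval 0.09 to 1.39, unadjusted p = 0.0324, adjusted p = 0.814). The second Sulf2 probe (ILMN_1239293) read 5.92, 6.998 and 6.41 on the KO arrays, against 6.42, 6.35 and 6.52 on the WT arrays. On that probe the groups overlapped and the differences were -0.50, 0.65 and -0.10. In the authors' processed table the second probe was the brighter one and the limma difference was 0.00. The second probe was also the brighter one without the KO nasal array or without the KO dorsal array, and the differences were then 0.27 and 0.08.

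Sulf1 went the other way in temporal. It read 5.79, 5.12 and 6.04 on the KO nasal, temporal and dorsal arrays, against 5.36, 6.39 and 6.52 on the WT nasal, temporal and dorsal arrays. KO temporal was the lowest of the 6 arrays, and the temporal difference was -1.27 (2.41-fold lower on KO, bead SE 0.15). The second probe gave -0.95 in temporal and -1.36 in dorsal, where the first gave -0.48. Over the 3 regions the limma difference was -0.44 (SE 0.37, adjusted p = 0.881), and it was -0.03 without the KO temporal and -0.85 without the KO nasal array.

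**Figure D4:**
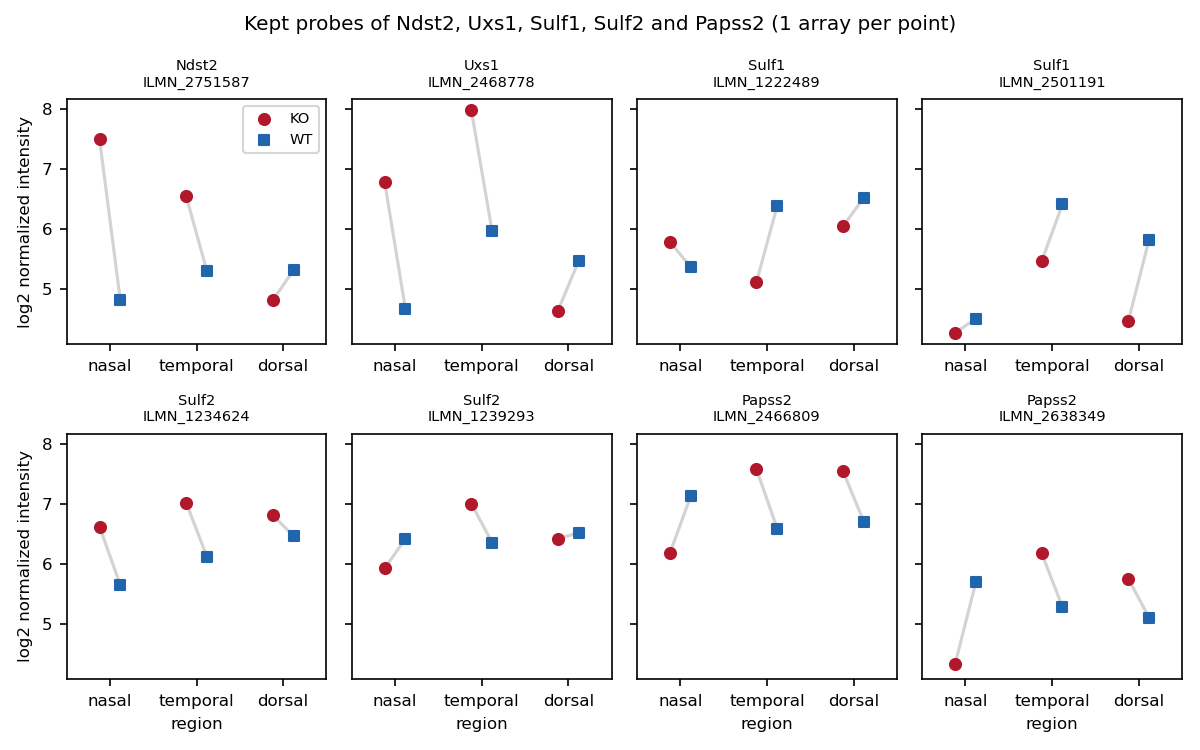
Log2 normalized intensity (y axis) of every kept probe of Ndst2, Uxs1, Sulf1, Sulf2 and Papss2 by region (x axis), with KO as circles left of WT as squares and 1 array per point. Ndst2 and Uxs1 are higher on KO in nasal and temporal and lower in dorsal, and the 2 Sulf2 probes differ in sign in nasal and dorsal.

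The sulfate supply genes were all tested, 5 of 5, and none reached 2-fold. Papss2 makes PAPS, the sulfate donor of every sulfotransferase. It read 6.17, 7.57 and 7.53 on the KO nasal, temporal and dorsal arrays, against 7.12, 6.58 and 6.70 on the WT nasal, temporal and dorsal arrays. KO nasal was the lowest and KO temporal the highest, so the WT values lay within the KO range. The differences were -0.95, 0.99 and 0.84, and the second probe had the same signs with -1.36, 0.89 and 0.65. Nasal departed from the other regions by -1.86 (limma unadjusted p = 0.0145, adjusted p = 0.388). The limma difference over regions was 0.29 (SE 0.44, adjusted p = 0.933), and without the KO temporal array it was -0.05.

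Slc35b2 carries PAPS into the Golgi. It too is given in full with its values already seen. It read 7.44, 7.94 and 7.82 on the KO nasal, temporal and dorsal arrays, against 7.52, 7.13 and 6.82 on the WT nasal, temporal and dorsal arrays. KO temporal and KO dorsal were above all WT arrays and KO nasal was just below WT nasal. The differences were -0.08, 0.81 and 1.00 (1.999-fold in dorsal), and limma gave 0.58 (SE 0.31, adjusted p = 0.814), or 0.37 without the KO dorsal and 0.89 without the KO nasal array. Papss1, the other PAPS synthase, read 6.65, 7.24 and 7.36 on the KO nasal, temporal and dorsal arrays, against 6.96, 7.42 and 7.42 on the WT arrays. It was lower on KO in each region by 0.06 to 0.32, with overlapping groups. Its second probe gave -0.06, 0.05 and -0.02.

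Slc35b3, a second PAPS carrier, read 6.74, 6.32 and 6.15 on the KO nasal, temporal and dorsal arrays, against 6.23, 6.53 and 6.60 on the WT arrays. KO held both the highest and the lowest value, and its second probe gave 1.20, 0.65 and -0.77 where the first gave 0.51, -0.20 and -0.45. Slc26a2, which brings sulfate into the cell, spanned 4.41 to 5.23 on KO and 4.88 to 5.47 on WT arrays. It was not detected on KO dorsal.

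Across the list, 6 of 25 members had the same sign in all 3 regions (24%), beside 27.4% of all genes. Fam20b, Hs2st1 and Papss1 were lower on KO in each region (3 members, 14.4% of all genes), and B4galt7, Hs6st1 and Sulf2 were higher (3 members, 13% of all genes). The other 19 had regions of opposite sign. These signs are those of the brightest probe. On second probes Hs2st1 was higher on KO in each region, and Papss1, Hs6st1 and Sulf2 had regions of opposite sign. No member was called between regions, but neither was any other gene tested. These fits therefore do not show that the members are alike across regions. For nasal and temporal together against dorsal, limma called 0 of 25 members after adjustment (0% of all genes) and 0 before it (3.83% of all genes). For nasal minus temporal it called 0 of 25 after adjustment (0% of all genes) and 0 before it (7.08% of all genes).

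Members with several kept probes show how far a single probe can be read. Of the 12 members with at least 2, the second probe had the sign of the first for 5 in nasal, 8 in temporal and 7 in dorsal. Over all 4797 genes with a second probe the signs were the same for 59.3%, 60.6% and 58.0% in nasal, temporal and dorsal. Of the members that passed 2-fold and had a second probe, the second had the same sign for 3 of 3 in temporal, Extl3, Hs6st2 and Sulf1. In dorsal it did for 0 of 2, B3gat3 and Hs2st1. Among all genes that passed 2-fold and had a second probe, the sign was the same for 65.6% in temporal and 67.5% in dorsal. The second probe itself reached 2-fold in the same direction for 0 of these members in either region. Ndst2, Uxs1 and Extl2 rested on 1 probe each.

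**Figure D5:**
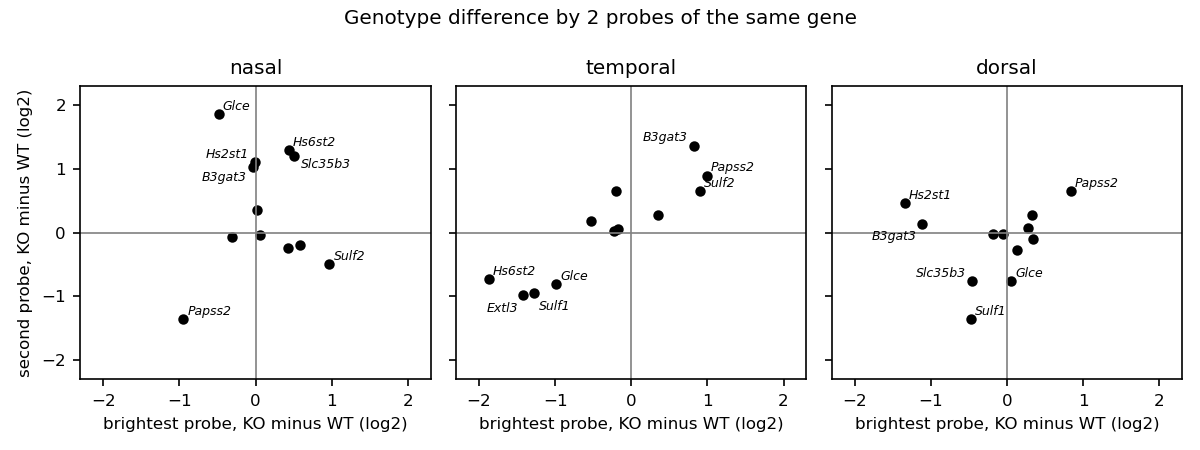
KO minus WT difference (log2) of the second brightest kept probe (y axis) against the brightest (x axis) for the 12 members with at least 2 kept probes, 1 panel per region, with genes near the centre left unnamed. In the temporal panel Extl3, Glce, Hs6st2 and Sulf1 lie below 0 on both probes, and in the dorsal panel Hs2st1 and B3gat3 lie on opposite sides of 0 on their 2 probes.

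Around the chain genes, limma called 0 genes of either direction in the remaining heparan sulfate lists. For 3-O-sulfation, the last and rarest modification, 3 of 7 genes were tested. All 3 were lower by at least 2-fold on KO temporal (8.31% of all genes), with a median difference of -2.71. Hs3st3b1 read 7.23, 5.17 and 6.24 on the KO nasal, temporal and dorsal arrays, against 8.34, 9.53 and 5.50 on the WT arrays (limma difference -1.58, SE 0.92, adjusted p = 0.814). Its WT temporal array was the highest of the 6, as it was for Hs3st1 and Hs3st3a1, and as it was for 14.9% of all genes. That array also held the highest cartilage and nerve glia marker sums. Which cells made that RNA, and whether cells of those types had a part, was not tested. Among core proteins, which carry the chains, 12 of 13 were tested, 5 higher and 7 lower on KO, and 3 of the 12, all syndecans, had an unadjusted limma p under 0.05, beside 5.9% of all genes. The differences were -1.03 for Sdc2 (SE 0.37), -1.33 for Sdc3 (SE 0.50) and -0.71 for Sdc4 (SE 0.27), each with an adjusted p of 0.814. The fourth syndecan, Sdc1, had a difference of 0.22 (SE 0.32, adjusted p = 0.93), and 0.90 in temporal.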

How the data were processed

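Epithelium of 3 regions was profiled on 6 Illumina bead arrays, 3 KO and 3 WT. Per the file headers, the deposited table held a mean signal intensity per probe, its bead standard error, bead counts and a detection p-value. Per the submitters' processing notes, GenomeStudio was the software used (no version given). The deposited p-values had steps that correspond to 936 negative controls. The authors' processed intensity values stood in a separate table, whose normalization and centring are not given in the sources used here. They had medians of 4.24 to 4.25, included negative values, and ranked probes as the signals of the same array did. Another 1315 entries without a probe identifier were not used.

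Signal intensities were background-corrected with limma 3.58.1 (R 4.3.3; normexp, with negative-control mean and spread estimated through the detection p-values, offset 16), quantile-normalized and taken to log2. Because of the offset, fold changes of dim genes are understated. Probes with a detection p under 0.05 on at least 2 arrays were kept, and each gene was represented by its brightest kept probe. Symbols came from the platform annotation, updated through RefSeq's gene table for GRCm38.p6: 34885 probes had 1 symbol, 18 several and 10378 none. The linear model (lmFit, eBayes, Benjamini-Hochberg over 11147 genes) had terms for region and genotype and 2 residual degrees of freedom, and 1 in the fits of regional departure. An exact permutation test of 3 against 3 arrays cannot fall below 0.1 and was not used. The code was tested on simulated data.

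Values on all arrays are given for members that differed by at least 2-fold in a region, kept 1 sign over regions, had an unadjusted p under 0.05 in any contrast, or had several kept probes. The members and gene lists were chosen with earlier results of these data known. The nasal and temporal departure fits and the second-probe setting were added after seeing the data. Alternatives were no background correction, an offset of 50, median scaling, other detection filters, the mean of a gene's probes, the authors' processed table (values under 16 set to 16), no region term, and leaving out each array. Fits without an array kept the region term, so the region of that array no longer entered the genotype difference.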

Additional observations from a re-analysis of the deposited data

How the results depend on the processing

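In every setting tried, limma called 0 members for genotype, and the smallest adjusted p of a member was 0.627. The number of members differing by at least 2-fold depended on the scale. In nasal it was 1 without background correction (5.22% of all genes), 5 in the authors' processed table (25.3%) and 8 with second probes (20.1%). In temporal it was 2 (3.72% of all genes), 11 (21.1%) and 4 (15.8%) in the same settings. With second probes more members passed in nasal than in temporal, as did a larger share of all genes. In dorsal it was 0 without background correction (0.55% of all genes) and with the mean of a gene's probes (4.21%). It was 1 with an offset of 50 (1.27%) and with second probes (5.95%). With median scaling it was 4 (7.34%), all 4 higher on KO. The 2 that were lower before, B3gat3 and Hs2st1, were still lower but short of 2-fold. Median scaling moved the median of all genes to 0.13, 0.07 and 0.18 in nasal, temporal and dorsal, and that of the members to 0.32, -0.005 and 0.33. With second probes the members' temporal median was 0.16, beside -0.03 over all genes. The cause of these changes was not tested.

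Of 346 alternative values of the members' genotype difference, 37 changed sign. Another 75 values were regional, and 2 of them did. These covered only the 10 differences already picked for reaching 2-fold, and the detection filters left them as they were. The low count of changed signs is therefore no check of these differences. With second probes, 3 of 5 regional values kept their sign. With second probes the dorsal difference was 0.14 for B3gat3 and 0.46 for Hs2st1. With median scaling the genotype difference was 0.031 for B3gat3, 0.022 for Ext1, 0.20 for Ext2, 0.17 for Ugdh, 0.020 for Ugp2, 0.094 for Papss1 and 0.20 for Slc35b3. With the mean of probes it was 0.25 for B3gat3, 0.064 for Ext2, 0.005 for Hs2st1 and 0.10 for Slc35b3. In the authors' table it was 0.08 for Xylt2 and 0.00 for Sulf2. Leaving out 1 array at a time, the values that included a change of sign ran from -0.508 to 0.183 for Xylt2, -0.09 to 0.654 for B3galt6, -0.575 to 0.399 for B3gat3, -0.397 to 0.24 for Ext1, -0.258 to 0.145 for Ext2, -0.879 to 0.283 for Hs6st2, -0.204 to 0.12 for Ugdh, -0.456 to 0.131 for Ugp2, -0.1 to 0.26 for Slc35d1, -0.056 to 0.915 for Papss2 and -0.333 to 0.154 for Slc35b3. With 1 array per genotype and region, the number of arrays limits every value, and probes near the background move most with the offset.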

Other observations

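The chondroitin sulfate enzymes share the linkage with heparan sulfate and then extend it differently. Of 16 such genes 11 were tested, and limma called 0 in either direction, with 0 at an unadjusted p under 0.05 (5.9% of all genes). On balance 2 were higher and 9 lower on KO, with differences of 0.14 to -0.51 and a median of -0.22. Dse, the epimerase of dermatan sulfate, read 5.42, 5.14 and 5.39 on the KO nasal, temporal and dorsal arrays, against 6.19, 6.43 and 4.86 on the WT arrays.

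The lysosomal enzymes that break heparan sulfate down were 6 tested of 8 listed, with 2 higher and 4 lower on KO and 0 called by limma. Naglu, which removes N-acetylglucosamine, read 6.49, 7.78 and 7.40 on the KO nasal, temporal and dorsal arrays, against 6.15, 6.12 and 6.26 on the WT nasal, temporal and dorsal arrays. All KO arrays lay above all WT arrays, where 11.5% of all genes had groups that did not overlap. The limma difference was 1.05 (SE 0.33, unadjusted p = 0.0202, adjusted p = 0.814). Naglu was the 1 of these 6 genes with an unadjusted limma p under 0.05, beside 5.9% of all genes. Of 11 further genes of sugar and sulfate supply 9 were tested, 4 higher and 5 lower on KO, and limma called 0 of them.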
